A study of Mus musculus with 11 samples.

Results

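The antigens that defined 4 sorted mouse blood cell populations were followed at the level of their own transcripts. The genes are Kit (CD117), Slamf1 (CD150), Eng (CD105) and Fcgr3 (CD16), used to sort bone marrow erythroid progenitors, and Itgax (CD11c), Sirpa (CD172), Itgam (CD11b), Cd4, Cd8a (CD8) and Ptprc (CD45, of which B220 is an isoform), used to sort splenic CD4+ dendritic cells (CD4+ DC). They are 10 of the 19933 genes that had a probe set assigned to that gene alone, and each gene was read from its probe set with the highest mean over the arrays. Each of the 10 had exactly 1 such probe set.

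RNA was hybridised to 11 single-colour Affymetrix arrays from C57Bl/6 mice at steady state. The mice were Zbtb46+/+ (WT), Zbtb46gfp/+ (Het) or Zbtb46gfp/gfp (KO), that is, they carried 0, 1 or 2 gfp alleles of Zbtb46, which encodes a transcription factor of dendritic and erythroid cells. From bone marrow of each genotype, lineage-negative cells were sorted as CD117+, CD150+ and CD105- (Pre MegE), as CD117+, CD150+ and CD105 low (Pre CFU-E) or as CD117+, CD150- and CD105+ (CFU-E), all of them negative for CD41, CD16 and CD32. Spleens of WT and KO mice gave CD4+ DC, taken as B220-, CD11c+, MHC class II+, CD8-, CD172+, CD11b+ and CD4+ cells. Each genotype and population had 1 array, so the 3 genotypes served as the replicates of a progenitor stage (n = 3) and the 2 genotypes as those of CD4+ DC (n = 2). The labels do not say how many mice went into an array or whether arrays came from separate sorts, so p-values measure the spread between these arrays. CD4+ DC differed from the progenitors in organ and in sort as well as in cell type, and these cannot be told apart.

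Values are log2 intensities, and the median of all probe sets lay between 7.61 and 7.77 on the 11 arrays. A gene below that median on its array is called below the median here. The labelled cell types were set beside their defining genes: all 4 measured erythroid markers (Klf1, Epor, Rhag, Ermap) were above the median on every progenitor array, and all 6 classical DC markers were above it on both CD4+ DC arrays. Epor and Ermap were also above it on both CD4+ DC arrays, and H2-Ab1, a gene of the MHC class II gate, and Dpp4 on every progenitor array. The erythroid list summed to 580 to 619 in linear intensity in CD4+ DC and to at least 8720 in the progenitors. For the classical DC list the sums were 36300 to 37300 in CD4+ DC and at most 2320 in the progenitors. Zbtb46 itself read 9.67 in WT and 8.02 in KO CD4+ DC, and 8.87, 8.62 and 7.50 in WT, Het and KO CFU-E. Markers of other cells were present too. All 8 granulocyte markers, among them Mpo and Elane, were above the median on every progenitor array, and 6 of 7 macrophage markers, among them Adgre1 and C1qa, were above it on both CD4+ DC arrays.

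Flow sorting reads protein on the cell surface, while an array reads messenger RNA, and the amount of surface protein also depends on translation, transport and turnover. CD117 is the receptor for stem cell factor, CD150 is a self-binding adhesion receptor that marks stem cells and early megakaryocyte and erythroid progenitors, and CD105 is a co-receptor of the transforming growth factor beta and bone morphogenetic protein receptors that appears on the surface as erythroid progenitors mature. In the spleen, CD11b and CD172 separate the CD4+ class of classical dendritic cells from the CD8+ class.

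The sequences before the transcript starts of 4 of the genes are shown because their transcripts behaved in contrasting ways. Slamf1 and Eng are the genes whose progenitor gates changed between stages, and Itgam and Itgax are related integrin genes of which only one had transcript above the median in progenitors. RefSeq's promoter table (GRCm38.p6) matched 8 of the 10 genes. Each window holds the 250 bases before the start on the plus strand, and capitals mark GATAA, the core bound by GATA factors, or GAGGAA, a core bound by PU.1, on either strand (as TTATC or TTCCTC on the reverse strand).
Slamf1, chr1:171766882-171767131: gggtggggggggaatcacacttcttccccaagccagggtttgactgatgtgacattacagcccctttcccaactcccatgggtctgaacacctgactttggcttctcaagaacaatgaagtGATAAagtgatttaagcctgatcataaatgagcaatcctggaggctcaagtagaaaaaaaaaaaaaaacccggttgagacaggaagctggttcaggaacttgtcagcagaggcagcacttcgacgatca
Eng, chr2:32646345-32646594: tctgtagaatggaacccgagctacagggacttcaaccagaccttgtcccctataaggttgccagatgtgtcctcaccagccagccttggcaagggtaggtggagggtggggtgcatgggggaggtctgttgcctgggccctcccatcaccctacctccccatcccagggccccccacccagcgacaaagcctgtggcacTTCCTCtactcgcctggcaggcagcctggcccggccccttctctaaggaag
Itgam, chr7:128062390-128062639: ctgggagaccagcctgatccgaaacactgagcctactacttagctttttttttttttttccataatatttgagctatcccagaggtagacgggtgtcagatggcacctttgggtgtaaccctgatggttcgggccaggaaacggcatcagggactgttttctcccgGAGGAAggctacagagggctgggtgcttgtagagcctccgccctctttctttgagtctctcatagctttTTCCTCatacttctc
Itgax, chr7:128129300-128129549: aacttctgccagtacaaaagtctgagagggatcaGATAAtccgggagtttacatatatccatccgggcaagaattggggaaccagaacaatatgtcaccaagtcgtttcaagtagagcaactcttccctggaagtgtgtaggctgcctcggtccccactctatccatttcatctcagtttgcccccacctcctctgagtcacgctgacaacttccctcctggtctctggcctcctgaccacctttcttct
The Slamf1 window held 1 match to GATAA and none to GAGGAA, and the Eng window held 1 match to GAGGAA and none to GATAA. Itgam had 2 matches to GAGGAA and Itgax 1 match to GATAA. Of all 32851 windows of the same length in the table, 22.6% held GATAA and 23.3% held GAGGAA, so matches to these letters are common, and they are a description of the windows only.

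**Figure D1:**
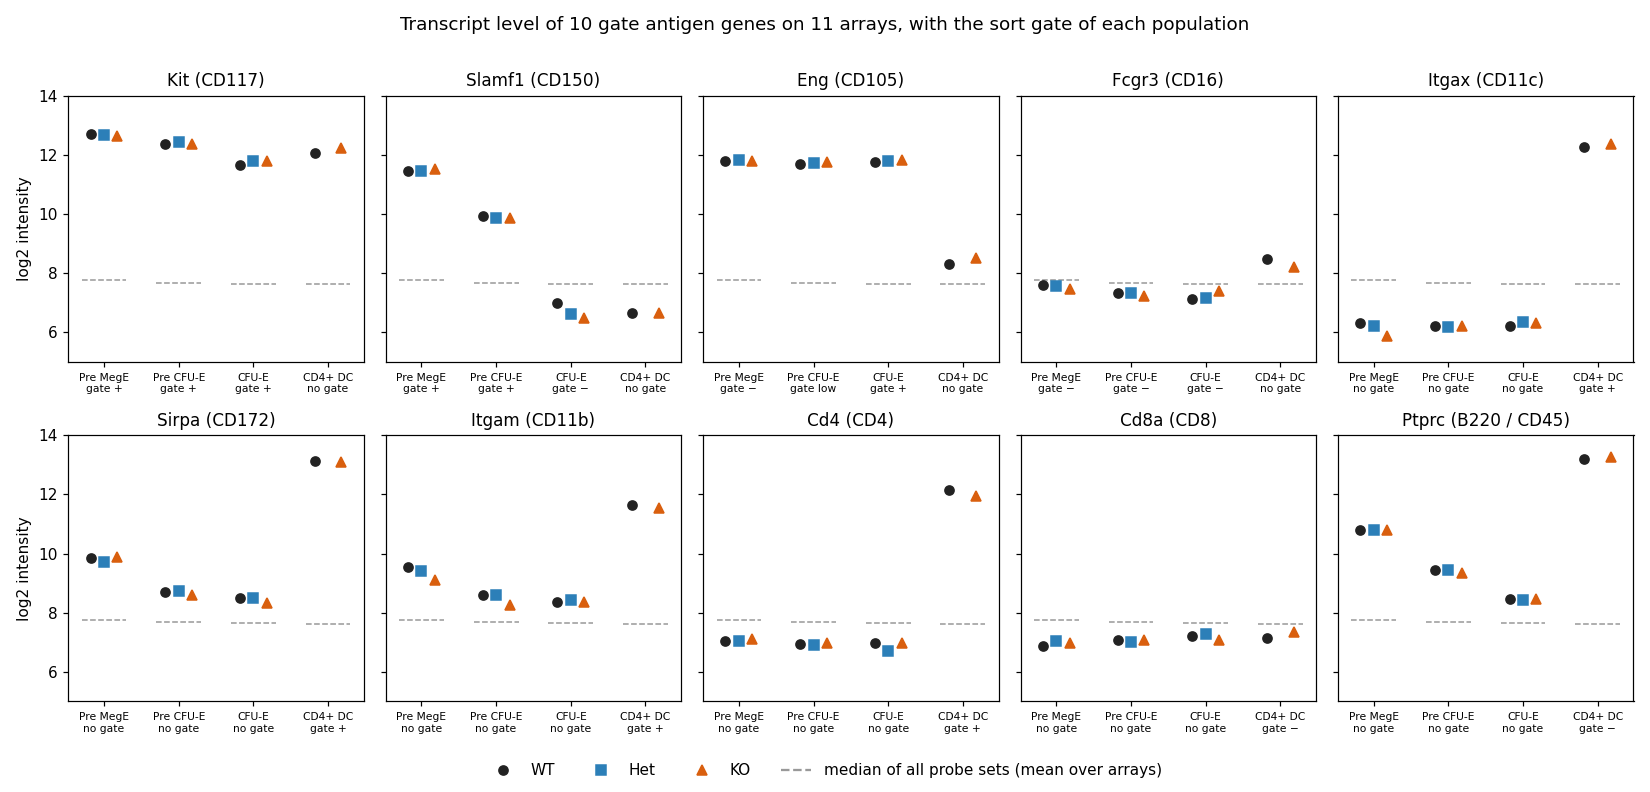
Log2 intensity of the 10 gate genes (vertical axis) in the 4 sorted populations (horizontal axis, with the gate of each population written below its name), with 1 point for each array and dashes at the mean over a population's arrays of their median over all probe sets. Slamf1 steps down from 11.47 to 9.89 to 6.69, Eng stays between 11.69 and 11.84 in all 9 progenitor arrays, and Itgax, Sirpa, Itgam, Cd4 and Ptprc are highest in CD4+ DC.

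The first question was whether transcripts of the progenitor gate antigens followed the gates across the 3 stages. Slamf1 did in part, Eng did not, and Kit transcript fell although every stage was sorted as CD117+. Of the 10 genes, 6 passed the filter on low values in the progenitors (at or above the array median on at least 2 of 9 arrays). From Pre MegE to Pre CFU-E, 5 of these 6 fell and none rose, against a background of 29.3% of the 10701 tested genes called lower and 37.1% called higher. From Pre CFU-E to CFU-E, 4 of 6 fell and none rose, where 25.3% of all genes were called lower and 18.7% higher. Slamf1, below the median in CFU-E, was tested only through the earlier stages, so its call there and over the whole interval could only be lower and supports nothing. Over the whole interval from Pre MegE to CFU-E, 5 of 6 fell (35.1% lower and 41.5% higher in the background). Calls are from limma with Benjamini-Hochberg adjustment over all tested genes at 0.05, in a fit with stage and genotype on the 9 arrays.

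Slamf1 changed most of the 10 genes across the stages. In WT, Het and KO, it read 11.45, 11.44 and 11.51 in Pre MegE, 9.93, 9.88 and 9.87 in Pre CFU-E, and 6.98, 6.62 and 6.47 in CFU-E. The arrays of the 3 stages did not overlap, and all 3 CFU-E arrays were below the median. Pre MegE and Pre CFU-E were both sorted as CD150+, yet Slamf1 was 2.97-fold lower in Pre CFU-E (log2 difference -1.57, SE 0.0937, adjusted p = 8.36e-07). In CFU-E, sorted as CD150-, its level was lower again, with a log2 difference of -3.20 from Pre CFU-E. As the gene passed the filter only through Pre MegE and Pre CFU-E, that difference is a description without a test. Slamf1 was lower in 3 of 3 genotypes at each step.

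Eng showed no matching change. Its protein was the one that separated all 3 stages (CD105-, low and +), but its transcript read 11.78, 11.81 and 11.80 in Pre MegE, 11.69, 11.73 and 11.77 in Pre CFU-E, and 11.76, 11.78 and 11.84 in CFU-E, for WT, Het and KO in turn. The 3 stages overlapped, and the whole spread of the 9 arrays was 0.159, smaller than that of all but 4.05% of the 10701 tested genes (median spread 0.56). The difference of CFU-E from Pre MegE was 0.00 with a 95% interval of -0.10 to 0.10 (adjusted p = 0.961). The 2 single steps were -0.07 (-0.17 to 0.04, adjusted p = 0.227) and 0.06 (-0.04 to 0.16, adjusted p = 0.287). Another scaling, or a weighting of the arrays, moved Eng across the threshold without giving a large change. CFU-E minus Pre MegE was 0.12 (adjusted p = 0.0335) when each array was centred on its median. The first step was -0.16 (adjusted p = 0.0139) after quantile normalization, and the second was 0.07 under array weights (adjusted p = 0.0383). Median centring moved the median of all genes as well, from 0.04 to 0.12 for the first step and from 0.05 to 0.17 for the whole interval. Relative to the median gene, Eng stood at -0.10 in the first step and -0.05 over the whole interval as deposited.

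Kit was well above the median on all 11 arrays. It read 12.69, 12.68 and 12.64 in Pre MegE, 12.38, 12.42 and 12.37 in Pre CFU-E and 11.67, 11.79 and 11.79 in CFU-E, in the order WT, Het and KO. No array of a later stage reached the lowest array of the stage before. Kit thus fell 1.22-fold in the first step (-0.28, SE 0.0496, adjusted p = 0.000735) and 1.56-fold in the second (-0.64, adjusted p = 8.91e-06), inside a CD117+ gate at every stage. A joint list of markers of mast cells, which also express Kit, and of basophils fell over the same stages. Its summed linear intensity was 6200 to 7040 in Pre MegE, 1770 to 2060 in Pre CFU-E and 763 to 957 in CFU-E. The sum for markers of stem and multipotent progenitors fell from between 7010 and 7900 to between 568 and 632. The part of either list in the Kit result was not tested.

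Fcgr3 and Fcgr2b encode CD16 and CD32, the Fc gamma receptors III and IIB that the antibody of that gate binds together. Their coding sequences are closely related, and whether a probe set reads some of the other gene's transcript was not tested. Fcgr3 was below the median on all 9 progenitor arrays (7.14 to 7.60), the gate being negative at each stage, and had no test there. Fcgr2b was not at that level in every stage. It read 8.99, 8.90 and 8.81 in WT, Het and KO Pre MegE, against 7.71, 7.53 and 7.30 in Pre CFU-E and 7.23, 7.18 and 7.14 in CFU-E. Every Pre MegE array thus exceeded every later one. The differences were -1.39 in the first step and -0.33 in the second, given as a description because Fcgr2b passed the filter only through Pre MegE and the WT Pre CFU-E array. Fcgr4, a further Fc gamma receptor gene, was below the median on all 9 arrays (5.40 to 5.76).

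The other antigen of the progenitor gate, CD41, is the platelet integrin alpha chain encoded by Itga2b, and every stage was sorted as CD41-. Its transcript was above the median in all 9 progenitor arrays all the same. In WT, Het and KO it read 10.85, 10.94 and 10.89 in Pre MegE, 8.73, 8.66 and 8.66 in Pre CFU-E, and 8.0, 7.89 and 7.87 in CFU-E. From Pre MegE to Pre CFU-E Itga2b fell 4.62-fold (-2.21, SE 0.053, adjusted p = 7.5e-09) and 1.70-fold again to CFU-E (-0.76, adjusted p = 4.24e-06). Itga2b stood on the megakaryocyte marker list, whose 4 measured genes summed to between 4500 and 5000 in Pre MegE, 1180 to 1310 in Pre CFU-E and 1020 to 1060 in CFU-E.

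**Figure D2:**
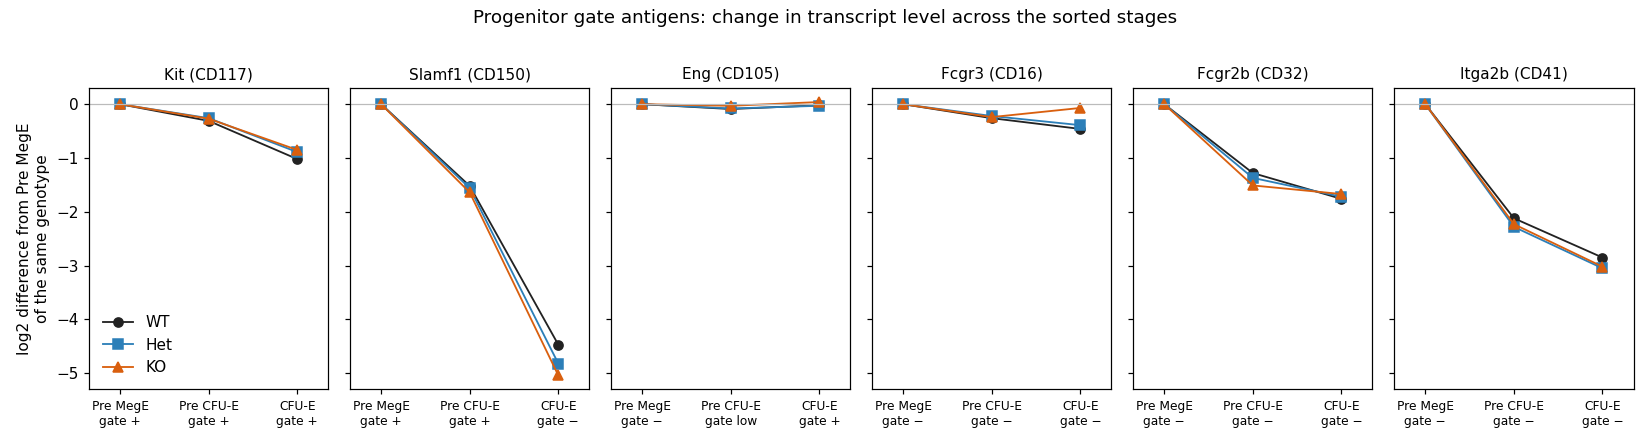
Log2 difference from the Pre MegE array of the same genotype (vertical axis) at the 3 progenitor stages (horizontal axis, with the gate), with 1 line for each genotype, for the progenitor gate antigens and Fcgr2b and Itga2b. Slamf1 and Itga2b fall through gates that did not change between the first 2 stages, while Eng stays near 0 as its gate goes from negative to positive; centring each array on its median puts Eng at 0.12 in CFU-E.

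The genes of the dendritic cell gate were not part of the progenitor sort, and 3 of the 6 were above the median there. Ptprc, Sirpa and Itgam were at their highest in Pre MegE and fell after it. Ptprc, a tyrosine phosphatase of nearly all nucleated blood cells, read 10.80, 10.78 and 10.78 in Pre MegE, 9.43, 9.46 and 9.33 in Pre CFU-E and 8.46, 8.44 and 8.45 in CFU-E. The arrays of a stage lay close together and those of different stages far apart, and Ptprc fell 2.60-fold (-1.38, SE 0.0482, adjusted p = 3.8e-08) and then 1.94-fold (-0.96, adjusted p = 5.98e-07).

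Sirpa, an inhibitory receptor for CD47, read 9.84, 9.71 and 9.89 in Pre MegE, 8.70, 8.74 and 8.59 in Pre CFU-E and 8.49, 8.51 and 8.32 in CFU-E. It fell 2.20-fold in the first step (-1.14, SE 0.0697, adjusted p = 9.42e-07), where no arrays overlapped. The second step was smaller (-0.24, adjusted p = 0.0214), and its call was lost when leaving out Het Pre CFU-E (-0.20, adjusted p = 0.0809), KO CFU-E (-0.18, adjusted p = 0.0731), or 1 of 2 WT arrays (CFU-E, -0.25, adjusted p = 0.0553; Pre CFU-E, -0.24, adjusted p = 0.0727). Quantile normalization also ended it (-0.15, adjusted p = 0.0929).

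Itgam, the alpha chain of the integrin Mac-1, read 9.53, 9.41 and 9.10 in Pre MegE, 8.60, 8.60 and 8.27 in Pre CFU-E and 8.37, 8.44 and 8.35 in CFU-E. It fell 1.81-fold in the first step (-0.86, SE 0.0739, adjusted p = 7.72e-06), again without overlap. The second step of -0.10 (95% interval -0.27 to 0.06, adjusted p = 0.286) did not pass. It did pass when KO CFU-E was left out (-0.20, adjusted p = 0.0197) and under array weights (-0.18, adjusted p = 0.00526). A further 3 probe sets were assigned to Itgam together with Rpl35 and were not used.

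Granulocyte markers moved with these genes in the first step. The 8 markers summed to between 35400 and 41800 in Pre MegE, 19700 and 24400 in Pre CFU-E, and 16800 and 21200 in CFU-E, and their part in the levels of Itgam, Sirpa, Ptprc and Fcgr2b was not tested. Itgax (5.88 to 6.35), Cd4 (6.72 to 7.10) and Cd8a (6.89 to 7.28) were below the median on all 9 progenitor arrays and had no test among the stages.

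The second question was whether transcripts of the dendritic cell gate antigens followed that gate. The genes of the 4 antigens sorted as positive (Itgax, Sirpa, Itgam, Cd4) were far above the array median on both CD4+ DC arrays, and Cd8a, sorted as negative, was below it on both. Ptprc, whose isoform B220 was sorted as negative, was far above it. Itgax, the alpha chain of the integrin p150,95, read 12.27 in WT and 12.36 in KO CD4+ DC. Cd4, the co-receptor for MHC class II, read 12.16 and 11.96. As Itgax and Cd4 were below the median on every progenitor array and passed the filter only through CD4+ DC, their distances from the progenitor mean, 6.10 and 5.10, are given as a description without a test.

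Sirpa read 13.12 and 13.11 and Itgam 11.64 and 11.53 in WT and KO CD4+ DC, above all of their progenitor arrays. In a fit on 11 arrays, Sirpa was 17.7-fold higher in CD4+ DC than in the mean of the 3 stages (4.14, SE 0.0712, adjusted p = 3e-12). Itgam was 7.39-fold higher (2.88, SE 0.0779, adjusted p = 6.02e-11). The smallest distances were to Pre MegE, 9.87-fold for Sirpa and 4.85-fold for Itgam. Cd8a read 7.13 in WT and 7.35 in KO CD4+ DC, within 0.46 of all other arrays, and Cd8b1, the CD8 beta chain, was also below the median on 11 of 11 arrays. No order of the populations was read from levels below the median.

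Ptprc was highest in the population sorted as negative for one of its products. It read 13.18 and 13.26 in WT and KO CD4+ DC, and was 12.8-fold higher than in the progenitors (3.68, SE 0.0552, adjusted p = 1.43e-12). B220 is the long CD45 isoform of B cells, made by including alternative exons, and a probe set of the whole gene does not separate isoforms. The level of Ptprc and the B220- gate are thus readings of different things. Of 5 measured B cell markers, Cd79b and Ms4a1 were above the median on both CD4+ DC arrays, and the list summed to between 1670 and 2110 there, against 1420 to 3300 in the progenitors.

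The progenitor gate antigens were not used on CD4+ DC, and they differed from one another there. Eng read 8.30 and 8.51, Slamf1 6.66 and 6.66, Fcgr3 8.47 and 8.20, and Kit 12.07 and 12.22 in WT and KO. Eng was 10.3-fold lower than in the progenitors (-3.37, SE 0.054, adjusted p = 1.93e-12), so the transcript that was level among stages gated from CD105- to CD105+ did differ between the cell types. Slamf1 was below the median on both CD4+ DC arrays and on all 3 CFU-E arrays. Its difference from CFU-E, -0.05, is therefore a description from which neither order nor equality was read. That difference became 0.04 without the WT CD4+ DC array and 0.12 without the WT CFU-E array. Fcgr3 passed the filter only through CD4+ DC, where it stood 0.97 above the progenitor mean, and this is a description.

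Kit stood within the range of the progenitors in CD4+ DC, cells that had not been sorted for CD117. By order of level, Pre MegE (12.67 ± 0.0254, SD, n = 3) was followed by Pre CFU-E (12.39 ± 0.0254, n = 3), CD4+ DC (12.15 ± 0.103, n = 2) and CFU-E (11.75 ± 0.0717, n = 3). Each neighbouring pair differed in the fit: CD4+ DC was 0.23 below Pre CFU-E (adjusted p = 0.00728) and 0.41 above CFU-E (adjusted p = 0.000122). Against the mean of all stages the difference was -0.11 (95% interval -0.23 to 0.02, adjusted p = 0.0932), called without the KO CD4+ DC array (-0.17, adjusted p = 0.0453) and in a fit with no genotype block (-0.12, adjusted p = 0.0453). Without the WT CD4+ DC array the difference from Pre CFU-E was not called (-0.16, adjusted p = 0.0667).

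The scaling decided the direction for Kit. The median gene stood 0.59 lower in CD4+ DC than in the progenitors as deposited, 0.53 lower after centring on the array median and 0.10 lower after quantile normalization, and relative to the median gene as deposited Kit was 0.48 higher in CD4+ DC. After quantile normalization Kit was 0.46 higher in CD4+ DC than in the mean of the stages (adjusted p = 3.1e-05), 0.35 higher than in Pre CFU-E (adjusted p = 0.000607) and 0.00 from Pre MegE (adjusted p = 0.968). Among 6 mast cell and basophil markers, Hdc was the one above the median on both CD4+ DC arrays, and the list summed to between 595 and 637 there, below the lowest progenitor array (763).

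In the whole comparison of CD4+ DC with the progenitors, 9 of the 10 genes were tested, 6 were called higher and 2 lower, where 25.3% of 11560 genes were called higher and 64.6% lower. The 6 include Itgax, Cd4 and Fcgr3, which could only be called higher (as Slamf1, below the median in CD4+ DC, could only be called lower), and they drop out of the test when either CD4+ DC array is left out, which leaves 3. The share of all genes called in either direction was 88.3% against Pre MegE, 88.6% against Pre CFU-E and 88.3% against CFU-E, so most genes were called in either direction. The sums of some marker lists of other cells moved with the genes that are higher in CD4+ DC. The 7 macrophage markers summed to between 9950 and 12600 on the 2 arrays and to between 744 and 992 in the progenitors. The 5 CD8+ DC markers summed to between 1010 and 1110 on the 2 arrays and to between 362 and 418 in the progenitors. Cadm1 was the only CD8+ DC marker above the median on both CD4+ DC arrays. The 5 measured T cell markers summed to between 1840 and 2040, against 660 to 759 in the progenitors. Cd3e, Cd5 and Il7r were above the median on both CD4+ DC arrays. Of these, Cd3e did not rise (mean 7.66, against 7.85 to 7.89 in the stages), and Cd3d and Cd3g were below the median on every array. For the 4 plasmacytoid DC markers, of which Siglech, Ccr9 and Bst2 were above the median on both arrays, the sums were 1680 to 1850 against 689 to 944. Bst2, at a mean of 9.02, lay within the stage means (8.78 to 9.22). The part of these lists in the levels of Itgam, Sirpa, Fcgr3, Fcgr2b, Cd4 and Ptprc was not tested.

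**Figure D3:**
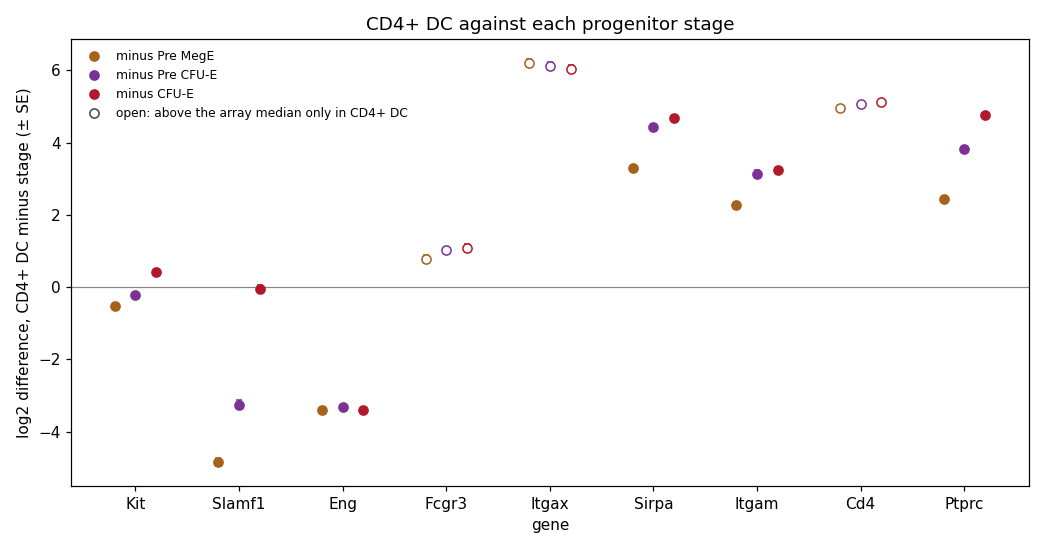
Log2 difference of CD4+ DC from each progenitor stage (vertical axis, points with bars for the SE of the limma fit, most of them smaller than the point) for the 9 gate genes that passed the filter on 11 arrays. Sirpa, Itgam and Ptprc are above 0 and Eng below 0 against all stages, and Kit lies between -0.51 and 0.41 but is at or above 0 against every stage after quantile normalization; open points mark Fcgr3, Itgax and Cd4, which were above the array median in CD4+ DC alone.

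The MHC class II gate had the same direction as the other positive gates of CD4+ DC. H2-Ab1, H2-Aa and H2-Eb1, which encode class II chains, read between 13.82 and 14.05 in CD4+ DC, and the invariant chain gene Cd74 read 13.88 on both arrays. Over the progenitors H2-Ab1 was 37.1-fold higher (5.21, adjusted p = 1.42e-12), H2-Eb1 57.5-fold higher (5.85, adjusted p = 1.23e-13) and Cd74 higher by 5.91 on the log2 scale (adjusted p = 1.24e-11). H2-Aa was above the median on 1 of 9 progenitor arrays (7.03 to 7.86) and passed the filter through CD4+ DC (13.82 and 13.87), so its levels are given without a test. H2-Ab1 and H2-Eb1 were above the median on all 9 progenitor arrays, at 8.40 to 9.02 and 8.01 to 8.40. Among the stages Cd74 fell by 0.81 in the first step (adjusted p = 0.00041) and H2-Eb1 fell by 0.24 (adjusted p = 0.0026). H2-Ab1 fell by 0.31 in the second step (adjusted p = 0.00757), a call lost without the WT Pre CFU-E array (-0.27, adjusted p = 0.0523). Genes that were not gated in CD4+ DC also differed. Fcgr2b was 5.89-fold higher than in the progenitors (2.56, adjusted p = 1.73e-09). Itga2b read 7.45 and 7.71 in WT and KO CD4+ DC, below the array median in WT and 0.07 above it in KO. As it passed the filter through the progenitors, its difference of -1.59 is a description. Fcgr4 read 9.76 and 10.54 in WT and KO CD4+ DC, and as it passed the filter only there, this is a description.

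The partners of the gate antigens, which are their ligands, co-receptors, adaptors and signalling proteins, were read from a list of 49 measured genes. Counted were those at or above the median on some array of both sides of a comparison. The shares of all genes cover every tested gene, also those above the median on 1 side only, so the sets were not filtered alike. In the first step 28 of 33 fell and 1 rose, where 29.3% of all genes were called lower and 37.1% higher. In the second 25 of 32 fell and 2 rose (25.3% lower and 18.7% higher in the background), and over the whole interval 29 of 31 fell and 1 rose (35.1% and 41.5%). In CD4+ DC against the progenitors 22 of 31 were higher and 6 lower, where 25.3% of all genes were higher and 64.6% lower.

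Partners of CD117 fell among the stages as Kit did. All 7 tested partners of Kit were lower in CFU-E than in Pre MegE, where 35.1% of all genes were called lower and 41.5% higher. Among them were the adaptor Gab2 at -1.45 (adjusted p = 4.43e-08), the ubiquitin ligase Cbl at -1.03 (adjusted p = 1.6e-06) and the exchange factor Sos1 at -0.69 (adjusted p = 1.24e-06). Kitl, which encodes stem cell factor, was below the filter in both fits. In CD4+ DC, Cbl was 1.96 above CFU-E (adjusted p = 5.01e-09) and Sos1 1.49 below Pre MegE (log2 difference -1.49, adjusted p = 5.83e-09). Of 11 measured partners of Slamf1, 3 were tested among the stages. In the first step 2 of these 3 fell, where 29.3% of all genes were called lower and 37.1% higher. Cd84 fell by 1.56 (adjusted p = 2.78e-07) and Cd48 by 0.32 (adjusted p = 0.00261), while Ly9 did not pass (-0.14, adjusted p = 0.0552). These 3 are the whole tested set, named after their values were seen. In CD4+ DC, Ly9 was 1.84 higher than in the progenitors (adjusted p = 3.76e-10), Cd48 did not pass (-0.08, adjusted p = 0.286), and Cd84 was below the median (7.22 and 6.79, against 10.22 to 10.37 in Pre MegE). The receptor genes Slamf7 and Cd244a and the adaptor gene Sh2d1b1 were below the median on all 9 progenitor arrays and read 11.77, 10.55 and 10.58 in WT CD4+ DC and 11.64, 10.60 and 10.35 in KO, a description without a test.

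Receptors and mediators that work with CD105 fell among the stages, where Eng did not pass the test. Of 8 partners of Eng above the median on some array in Pre MegE and in CFU-E, 8 were lower in CFU-E. Of all genes, 35.1% were called lower and 41.5% higher there. Among the 8 were the co-receptor Tgfbr3 (-1.57, adjusted p = 9.71e-08) and the receptor Tgfbr1 (-0.77, adjusted p = 1.28e-05). The mediator Smad1 was below the median in CFU-E (7.27 to 7.45, against 8.71 to 8.78 in Pre MegE, a description). Acvrl1 encodes the type I receptor ALK1, which CD105 binds in endothelium. It was below the median on all 3 Pre MegE arrays (7.43 to 7.68) and read 7.73 to 7.86 in CFU-E, also a description, since it passed the filter through the later stages. Tgfbr3 was below the median in CD4+ DC (7.08 and 7.10), whereas Tgfbr1 was 2.09 above CFU-E (adjusted p = 9.31e-09).

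Of 6 partners of Itgax and Itgam, 5 fell at each step and 1 rose. Of all genes, 29.3% were called lower and 37.1% higher in the first step, and 25.3% and 18.7% in the second. The one that rose was Itgad, an integrin alpha chain of the same family (0.21, adjusted p = 0.0161, and 0.34, adjusted p = 0.00227). Itgad was named after its values were seen. Against the same shares, 3 of 5 partners of Sirpa fell in the first step, and 2 fell and 1, Fyb, rose in the second (0.20, adjusted p = 0.0115). With 5 genes, no result was read from the second count. Itgb2, the beta chain shared by CD11b and CD11c, fell by 0.79 and then by 0.90 among the stages (adjusted p = 2.4e-06 and 2.25e-06) and was 2.99 higher in CD4+ DC than in the progenitors (adjusted p = 1.43e-11). Fcer1g, the signalling chain of CD16, fell by 1.35 and 0.61 (adjusted p = 1.95e-06 and 0.000655) and was 3.29 higher in CD4+ DC (adjusted p = 1.17e-10). The kinase gene Syk fell by 2.97 from Pre MegE to CFU-E (adjusted p = 4.28e-10). Itgal, the alpha chain of LFA-1, and its ligand gene Icam1 were 3.35 (adjusted p = 6.1e-12) and 3.22 (adjusted p = 3.48e-11) above CFU-E in CD4+ DC. For Itgal this held against the later stages only, as its mean was 11.05 in CD4+ DC and 11.03 in Pre MegE. Mean Icam1 was 11.34 in CD4+ DC and 8.91 in Pre MegE, its highest stage. The adaptors Fyb and Skap2 and the phosphatase Ptpn6, which act with Sirpa, were 2.83 above Pre CFU-E (Fyb, adjusted p = 2.76e-11), and 2.53 (Skap2, adjusted p = 1.22e-10) and 1.27 (Ptpn6, adjusted p = 1.46e-08) above CFU-E. Against the mean of the stages, 3 of the 5 partners of Sirpa were called higher and 2 lower (25.3% and 64.6% of all genes). The lower ones were Cd47 (mean 12.13 in CD4+ DC, 12.21 to 12.47 in the stages) and the phosphatase gene Ptpn11 (10.47, against 11.15 to 11.26). Ptprcap, whose product binds CD45, went against Ptprc in CD4+ DC, at -2.79 relative to Pre MegE (adjusted p = 3.04e-10), and the kinase gene Fyn fell by 1.79 from Pre MegE to CFU-E (adjusted p = 4.19e-09).

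The third question was whether loss of Zbtb46 went with a change of the gate genes. No gate gene was called. In the progenitors KO differed from WT in 0 of 6 tested genes (0.14% of all genes were called), with 1 at an unadjusted p under 0.05, and Het differed in 0 of 6 (0.0374% of all genes), with none at an unadjusted p under 0.05. That gene was Itgam, at -0.26 (95% interval -0.43 to -0.09, adjusted p = 0.5). Along the stages its KO minus WT difference was -0.43, -0.34 and -0.02, lower in 3 of 3 stages. For the others the KO minus WT intervals were -0.09 to 0.14 for Kit, -0.39 to 0.04 for Slamf1, -0.04 to 0.17 for Eng, -0.23 to 0.08 for Sirpa and -0.15 to 0.07 for Ptprc.

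In CD4+ DC there was 1 array of each genotype and no test. None of the 8 gate genes that passed the filter there differed by 2-fold, as 0.313% of 10554 genes did. The widest differences were Fcgr3 at -0.28, Eng at 0.21 and Cd4 at -0.20, and quantile normalization put Eng at 0.37. Whether the KO effect differed between CD4+ DC and the progenitors was tested with an interaction term that takes its error from the progenitor arrays. No gate gene was called among 9 tested (4.57% of all genes were). Of these, Itgax, Cd4 and Fcgr3 were below the median on every progenitor array, and Slamf1 on both CD4+ DC arrays. For those genes the lack of a call carries no weight. The differences of the KO effects were 0.12 for Kit, 0.14 for Eng, 0.06 for Sirpa, 0.15 for Itgam and 0.12 for Ptprc.

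**Figure D4:**
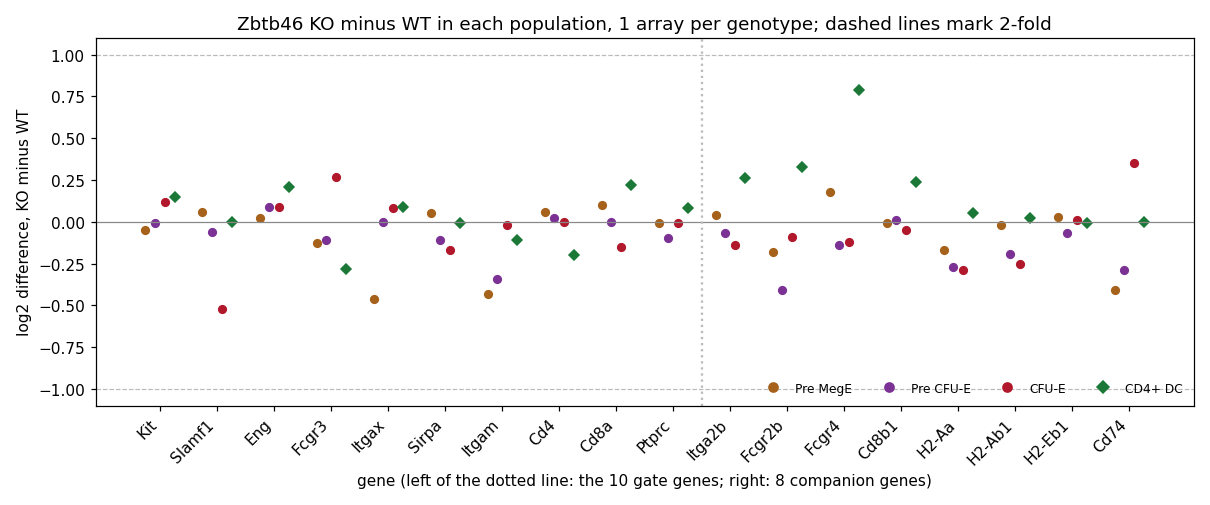
Log2 difference of KO from WT (vertical axis) in each of the 4 populations for the 10 gate genes and 8 companion genes, which encode other gate antigens or chains and receptors related to them (horizontal axis), with 1 array per genotype and so no error bar; dashed lines mark 2-fold. Slamf1 in CFU-E (-0.52), where all arrays are below the median, and Itgax in Pre MegE (-0.46), also below the median, are the widest among the gate genes, and no point reaches 2-fold.

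The genes whose levels most resembled those of a gate gene were ranked by Pearson's r. Over the 9 progenitor arrays and 2234 genes with a range of at least 1, Kit was most like P2rx4 (0.9989), Prrg4 (0.9978) and Galnt11 (0.9978), and Slamf1 was most like Vim (0.9991), Lgals1 (0.9987) and Pgm1 (0.9986). Over all 11 arrays and 7345 genes, Itgax was nearest to Clec4a1 (0.9997), Mmp12 (0.9993) and Abca9 (0.9992), Cd4 to Ckb (0.9997), Jag1 (0.9992) and Pde4dip (0.9992), and Sirpa to Sting1 (0.9993), Epb41l2 (0.9990) and Nav1 (0.9989). Itgam was nearest to Ncf1 (0.9983), Map7d1 (0.9966) and Unc93b1 (0.9959), Ptprc to Nfam1 (0.9983), Abr (0.9982) and Castor2 (0.9977), and Fcgr3 to Npc1 (0.9924), Eml5 (0.9892) and Arhgap17 (0.9873). The arrays fall into 3 stages and, for the longer series, a far group of 2 CD4+ DC arrays, so that any gene with the same order of populations scores high, and these values describe a shape. Eng over the progenitors and Cd8a over all arrays had ranges under 1 and were not ranked.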

How the data were processed

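The series holds 1 table of 11 arrays. The authors deposited linear intensities per probe set, and the submitters' processing notes name RMA without a version. A genome build and annotation were not given in the sources used here. Array medians ran from 195.7 to 218.4. The deposited intensities were converted to log2 here. Of 29674 probe sets, 21780 had 1 gene symbol, 1618 several and 6276 none in the platform annotation. Genes at or above the array median on fewer than 2 arrays were not tested. Differences were fitted with limma 3.58.1 in R 4.3.3 (lmFit, eBayes), with stage and genotype on 9 progenitor arrays (4 residual degrees of freedom) and population and genotype on 11 arrays (5), and p-values were adjusted by Benjamini-Hochberg over all tested genes. In simulated data 30% of differences of 0.25, 86% of 0.5 and 100% of 1 were called for Pre CFU-E minus Pre MegE (10701 genes). The simulation changed far fewer genes than were called in the data (37.1% higher and 29.3% lower), so its adjustment was stricter. These shares therefore do not carry over to the real comparison. The number of arrays limits the precision. The members and lists were chosen with earlier results of these data known. Named were all gate genes and 8 companion genes (other gate antigens and related chains or receptors), up to 3 called partners per gate gene with the widest difference (and Itgb2, Fcer1g, Acvrl1 and Kitl), and the 3 nearest genes by Pearson's r. Marker genes of other cell types were summed as linear intensities. Alternatives were median centring, quantile normalization, array weights, no filter and a stricter filter, no genotype term and leaving out each array.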

Additional observations from a re-analysis of the deposited data

Results flagged for a closer look

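The Fc gamma receptor genes Fcgr2b and Fcgr4 were flagged in the interaction fit, which compares the KO effect in CD4+ DC with that in the progenitors. Fcgr2b read 0.33 above WT in KO CD4+ DC and its KO minus WT difference along the 3 progenitor stages was -0.18, -0.41 and -0.09. Fcgr2b was below the median in Het and KO Pre CFU-E and on all CFU-E arrays, and WT Pre CFU-E stood 0.03 above it. The Pre CFU-E and CFU-E differences therefore carry no order, and the interaction call for Fcgr2b rests in part on them. The difference of the KO effects was 0.56 (SE 0.125, limma adjusted p = 0.0407), with adjusted p from 0.0138 to 0.0956 over the alternatives. The call was lost with no filter (adjusted p = 0.0671) and without each of 7 of the 9 progenitor arrays. Fcgr4 read 9.76 in WT and 10.54 in KO CD4+ DC and was below the median on every progenitor array. It entered the fit only through CD4+ DC, so its difference of KO effects, 0.81, is a description without a test. In each case the CD4+ DC side rests on 1 array per genotype.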

How the results depend on the processing

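Of the 10 gate genes, Ptprc and Kit kept their fall at both steps between the stages under all alternatives run, as did Slamf1, Sirpa and Itgam in the first step. Eng moved with the scaling: median centring gave 0.02 for the first step and 0.12 for CFU-E minus Pre MegE, where leaving out 1 array gave -0.02 to 0.01. The count of gate genes higher went from 0 to 1 through Eng in the second step (array weights) and over the whole interval (median centring), and to 1 through Cd8a over the whole interval with no filter (0.21, limma adjusted p = 0.0249, at levels below the median). Uncalled genotype differences turned sign near 0. Leaving out 1 array gave -0.02 to 0.05 for Kit (KO minus WT) and, for Het minus WT, -0.07 to 0.06 for Sirpa, -0.10 to 0.05 for Itgam and -0.03 to 0.02 for Ptprc. Het minus WT was 0.00 for Sirpa and Itgam with array weights and for Ptprc after quantile normalization. Quantile normalization put Kit in CD4+ DC at 0.46 above the progenitors and 0.35 above Pre CFU-E, and moved KO minus WT of Eng in CD4+ DC from 0.21 to 0.37. Slamf1 in CD4+ DC minus CFU-E ran from -0.19 to 0.12 without 1 array. The count of gate genes higher in CD4+ DC was 3 to 6 without 1 array (also against Pre MegE and Pre CFU-E) and 4 to 7 against CFU-E, since a gene high in CD4+ DC alone then has too few arrays for the filter. Over all genes, counts that moved by over 1.5 times were 2004 genes higher in the second step (3416 with array weights, 1322 without WT Pre CFU-E), 2928 higher in CD4+ DC (6681 with no filter, 4671 after quantile normalization), 2 higher and 13 lower in KO progenitors (0 to 2 and 1 to 24 without 1 array), 1 higher and 3 lower in Het (13 and 31 with array weights, 0 to 1 and 1 to 4 without 1 array), 180 higher and 348 lower for the interaction (513 and 622 after quantile normalization, 71 and 130 without WT Pre CFU-E, 576 lower without KO CFU-E) and 12 and 21 in the CD4+ DC pair (23 and 48). The array weights were fitted with a warning on convergence. The labels give no replicate numbers, and the stages were compared within genotype, which stood as the block. Genes below the array median carry no order here.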
